A study of Mus musculus with 4 samples.

Results

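The T-box genes encode transcription factors that share a DNA-binding domain named after the gene T (Brachyury) and that set up mesoderm, limbs, heart and pharynx in the embryo. Ring1b occupancy was examined at 10 of them: Tbx1, Tbx2, Tbx3, Tbx4, Tbx5, Tbx15, Tbx18, Tbx20, T and Eomes. Each gene was given a fixed window of the mouse genome (build mm9), Tbx2 and Tbx4 sharing 1, and every listed Ring1b region that overlapped a window by at least 1 bp was taken. This gave 5 regions of 6371 in all: 1 each at Tbx15, Tbx20 and Tbx1 and 2 at Eomes. No listed region overlapped the windows of Tbx2 and Tbx4, Tbx3, Tbx5, Tbx18 or T. These statements, like all gaps and shares given here, are about the table as used here, which may not hold every region the authors listed.

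Ring1b was profiled by chromatin immunoprecipitation and sequencing (ChIP-seq) in C3H10T1/2, a mesenchymal progenitor line from C3H mouse embryos. A stable FLAG-HA-tagged H3.3 transgene was expressed in all cells, in 1 group as wild type (WT) and in the other with lysine 36 replaced by methionine (K36M), so that the tagged H3.3 was common to both groups. The labels give no treatment, and they do not say whether a line was a clone or a pool. Each form of H3.3 had 1 Ring1b library and 1 input library; values of the 2 Ring1b libraries were used, and those of the inputs were not analysed here. The data hold no expression values, so the identity of the cells was not checked against marker genes.

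Ring1b is the enzyme of Polycomb repressive complex 1 (PRC1). The complex ubiquitinates histone H2A and compacts chromatin at silent developmental genes. Genes for lineage-specifying transcription factors, T-box genes among them, are classical Polycomb targets in cells that do not use them, and PRC1 is recruited above all to CpG-rich promoters. Methylation of H3K36, which the K36M histone blocks, opposes the Polycomb mark H3K27 methylation.

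Values are reads per 1000000 reads (RPM), where 1 read counts for 0.0335 in the WT library and 0.0317 in the K36M library. The 6371 regions held 1075510 reads in WT and 720528 in K36M. Each form of H3.3 had a single Ring1b library, so no test with replicate error was possible, and tests on reads compare these libraries alone. All intervals are exact 95% counting intervals, and they cover counting error only. Ring1b levels include background reads, and the regions were chosen from WT peaks, which can place K36M lower at them to an unknown extent.

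Of the 9 windows, 70 to 200 kb wide, 4 held a region. For comparison, 13.3% of the 25961 tiles of 100 kb along the chromosomes overlapped a region of the table. Regions covered 1.84% of the windows' total length of 1030 kb and 1.12% of the chromosomes up to their last listed region. Unlike the windows, the tiles had a single width, and neither tiles nor chromosomes were chosen around genes. These shares are therefore only a rough background for the windows. The windows without a region included all 4 genes of the Tbx2 subfamily, which stand as neighbouring pairs in the genome: Tbx3 beside Tbx5, and Tbx2 beside Tbx4. The windows of Tbx3 and Tbx5 lay in a single stretch of 5136 kb without a region in the table as used here. Of the 6350 gaps between consecutive regions of the table, 1.09% were at least that long, and the median gap was 42.8 kb. This share counts gaps and not length. A fixed window falls more readily in a long gap, so the share understates how often a window would lie in one. The window of T, which specifies mesoderm and notochord, lay in a stretch of 2150.4 kb without a region. The window of Tbx18, a gene of somites and epicardium, was 199.6 kb from the nearest region, and that of Tbx2 and Tbx4 was 99.2 kb from it. The table lists regions tied to WT peaks and gives no value elsewhere, so a window without a region is a window without a measured level, not one shown to lack Ring1b in either library.

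**Figure D1:**
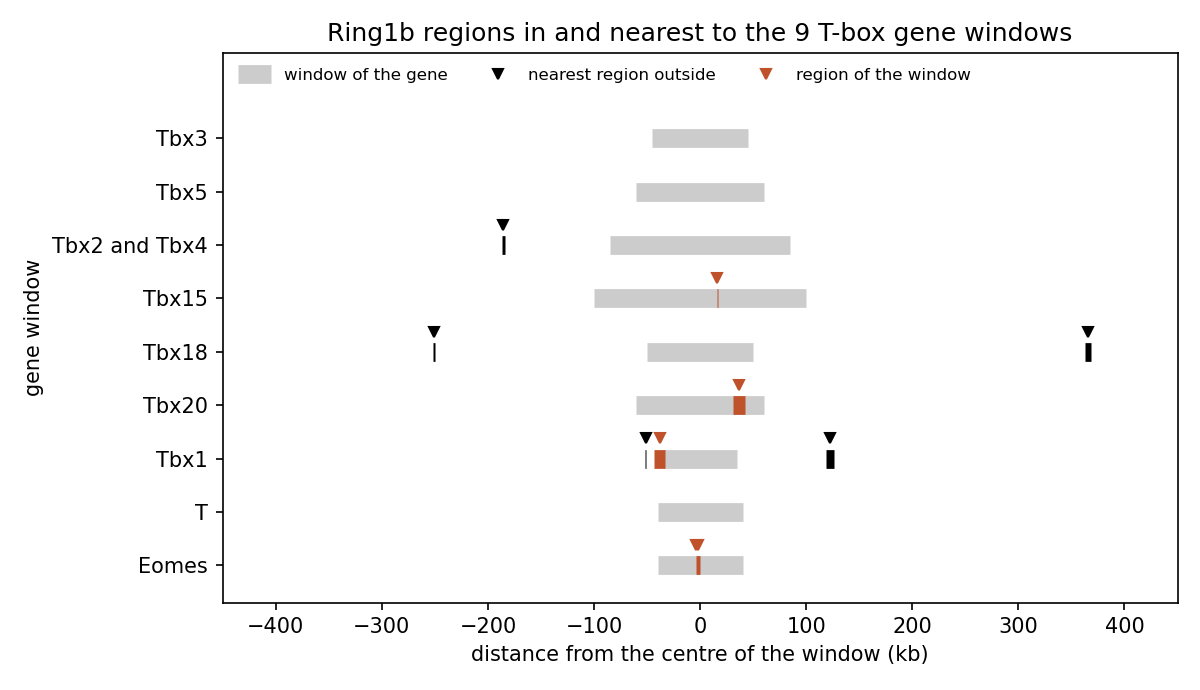
Positions of listed Ring1b regions along the 9 gene windows, as distance in kb from the centre of each window. Grey bars are the windows, orange bars and triangles the regions taken for a window, and black bars and triangles the nearest region outside it where it lay within 450 kb; the Tbx1 region crosses the edge of its window, and 5 windows hold no region.

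The table names no genes, and no mm9 gene annotation was used, so that a region could not be placed at a start site, exon or intron. Promoter sequences were therefore described separately, from RefSeq on build GRCm38.p6, which held 7 promoters for 6 of the 10 genes. The 250 bases before the start are given for Tbx20 and Eomes, whose windows held a region wholly inside them, and for Tbx18 and T, whose windows held none, because PRC1 is tied to CpG-rich promoters. Capitals mark each CG, which reads the same on both strands. The Tbx20 bases are chr9:24774304-24774553 (minus strand), those of Eomes chr9:118477939-118478188 (plus strand), those of Tbx18 chr9:87731261-87731510 (minus strand) and those of T chr17:8434173-8434422 (plus strand), all GRCm38.p6 and not to be read against the mm9 positions of the regions.
Tbx20: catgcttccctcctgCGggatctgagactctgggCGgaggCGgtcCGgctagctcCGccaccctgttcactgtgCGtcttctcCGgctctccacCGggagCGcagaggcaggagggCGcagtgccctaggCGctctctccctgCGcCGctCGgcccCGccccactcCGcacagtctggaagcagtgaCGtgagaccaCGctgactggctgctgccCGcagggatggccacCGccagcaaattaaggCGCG
Eomes: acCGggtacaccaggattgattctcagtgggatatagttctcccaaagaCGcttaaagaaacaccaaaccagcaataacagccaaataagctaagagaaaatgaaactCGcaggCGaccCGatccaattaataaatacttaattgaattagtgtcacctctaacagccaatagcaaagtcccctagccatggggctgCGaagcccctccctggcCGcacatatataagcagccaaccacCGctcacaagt
Tbx18: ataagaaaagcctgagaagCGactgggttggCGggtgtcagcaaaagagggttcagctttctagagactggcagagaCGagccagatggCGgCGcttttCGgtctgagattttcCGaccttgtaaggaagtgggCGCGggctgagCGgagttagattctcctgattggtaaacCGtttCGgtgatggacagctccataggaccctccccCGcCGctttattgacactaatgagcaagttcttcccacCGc
T: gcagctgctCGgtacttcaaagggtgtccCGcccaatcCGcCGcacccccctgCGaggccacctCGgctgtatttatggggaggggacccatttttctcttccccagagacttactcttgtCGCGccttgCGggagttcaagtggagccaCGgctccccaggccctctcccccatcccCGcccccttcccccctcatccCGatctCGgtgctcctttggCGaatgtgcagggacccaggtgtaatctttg

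The Tbx20 promoter held 22 CGs, a number reached by 14.8% of the 32841 promoters, which have a median of 6. The promoters of Tbx18 and T held 15 and 14, reached by 27.3% and 29.4%. The Eomes promoter held 8, reached by 43.0%, and its GC content of 46.4% lay below the promoter median of 52.4%. Tbx1 has 2 listed promoters with 17 and 10 CGs, and the Tbx4 promoter held 6. The CG numbers of genes with a region (Tbx1, Tbx20 and Eomes, 8 to 22) and without a region (Tbx4, Tbx18 and T, 6 to 15) overlapped. These genes are too few for a comparison, and the Tbx1 region only crosses the edge of its window. CGs outside the 250 bases before the start were not counted. At least 1 CG was present in 92.1% of all promoters. Promoters of Tbx2, Tbx3, Tbx5 and Tbx15 were not analysed here.

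All 5 T-box regions had a lower Ring1b level in K36M than in WT, as did 85.1% of the 6371 regions. At all 5, the ratio of K36M to WT had its whole counting interval under 1, against 65.1% of the table. An exact binomial test on reads with Benjamini-Hochberg adjustment, a comparison of these libraries alone, also called all 5 lower, against 63.8% of the table. Levels were at least 1.5-fold lower at 4 of the 5 (53.4% of the table) and at least 2-fold lower at 3 (33.5% of the table), with folds taken after adding 0.1 RPM to both values. With 1 RPM added instead, the counts were 2 and 1. They were 2 and 0 after centring on the median of all regions, and 2 and 1 with each library divided by its sum over all regions. The median log2 ratio of K36M over WT, on the log2(RPM + 0.1) scale used for all log2 ratios here, was -1.01 over the 5 regions, ranging from -1.62 to -0.37, and -0.65 over all regions. The 5 regions come from 4 windows and 2 of them touch, so these counts are too few to be read as different from the table.

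**Figure D2:**
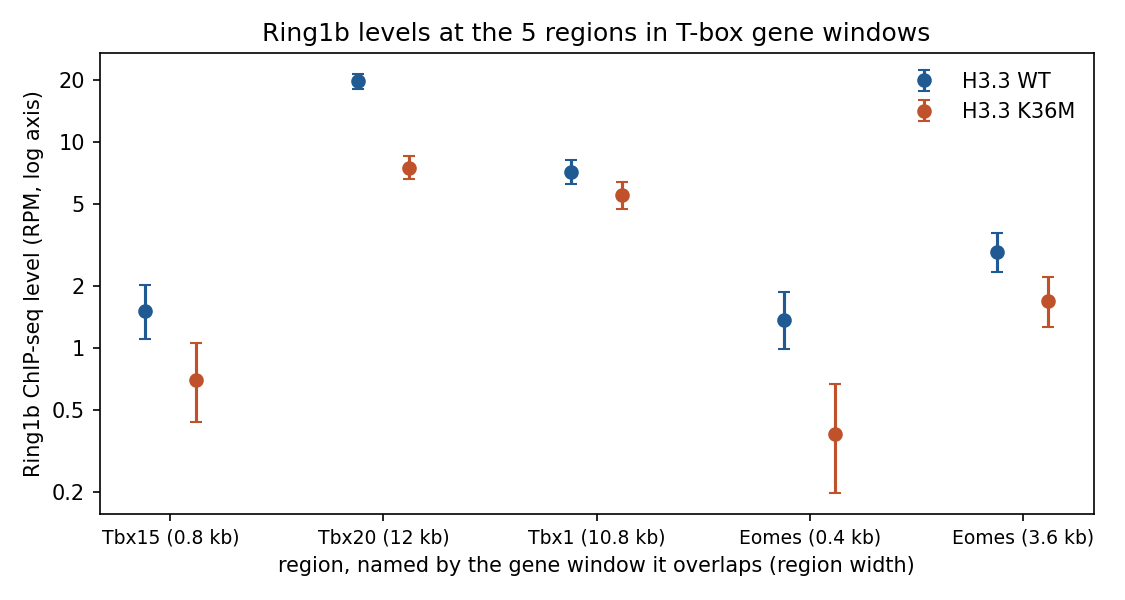
Ring1b level (RPM, log axis) in the WT and K36M libraries at the 5 T-box regions, with exact Poisson 95% counting intervals; each point is 1 library. Width is not divided out, and the 12-kb Tbx20 region has the highest level in both libraries (19.6 and 7.48 RPM). K36M lies below WT at every region.

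Tbx20, a gene of the developing heart in the Tbx1 subfamily, had a broad Ring1b region that was 2.62-fold lower in K36M. A single region of 12 kb on chromosome 9, 24570601 to 24582600, stood at 19.6 RPM in WT (585 reads, interval 18.0 to 21.3) and at 7.48 in K36M (236 reads, interval 6.56 to 8.50). The WT value was thus far above the K36M value, and the counting intervals of the levels did not overlap. The ratio was 0.382 (interval 0.327 to 0.445), a fold of 2.62 with an interval of 2.25 to 3.06, and the log2 ratio was -1.38. Not divided by width, Tbx20 carried 60.2% of the WT signal summed over the 5 regions and 47.6% of the K36M signal. Per length it did not lead: in WT the Tbx15 window stood at 1.88 RPM per kb of region, Tbx20 at 1.63, Eomes at 1.07 and Tbx1 at 0.661. In K36M the same windows stood at 0.872, 0.623, 0.515 and 0.508 RPM per kb, in the same order. In WT the interval of Tbx15 (1.37 to 2.52) includes the Tbx20 value, and Eomes and Tbx1 differ beyond counting error from Tbx20 and from each other. In K36M each window's interval overlaps that of the next in the order. Level per length fell with width over the table. The WT median was 6.62 RPM per kb for regions of 400 bp or less and 0.775 for those wider than 8000 bp. The order of the windows therefore mixes Ring1b level with region width. For its width, Tbx15 lay below the WT median (2.84 for regions over 400 and up to 2000 bp), and Tbx20 lay above its own.

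The Tbx20 region was compared with the 1215 regions wider than 8000 bp, since level and width are linked. Its WT level per length, 1.63 RPM per kb, was exceeded by 51 of them, and the class median was 0.775. In K36M its level per length, 0.623 RPM per kb, was exceeded by 389, against a class median of 0.519. The region therefore stood near the top of its class in WT and closer to the middle in K36M. Its log2 ratio was -0.85 relative to the class median of -0.53, and 75 wide regions had a lower one. In this class, 18.7% of regions were lower by 2-fold or more. Ratios in the class were lower where the WT level per length was higher: the 51 wide regions denser than Tbx20 had a median log2 ratio of -1.22, 29 of them were at least 2-fold lower, and 21 had a lower log2 ratio than Tbx20. WT level enters both measures, and the part of background reads in the less dense regions was not tested.

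**Figure D3:**
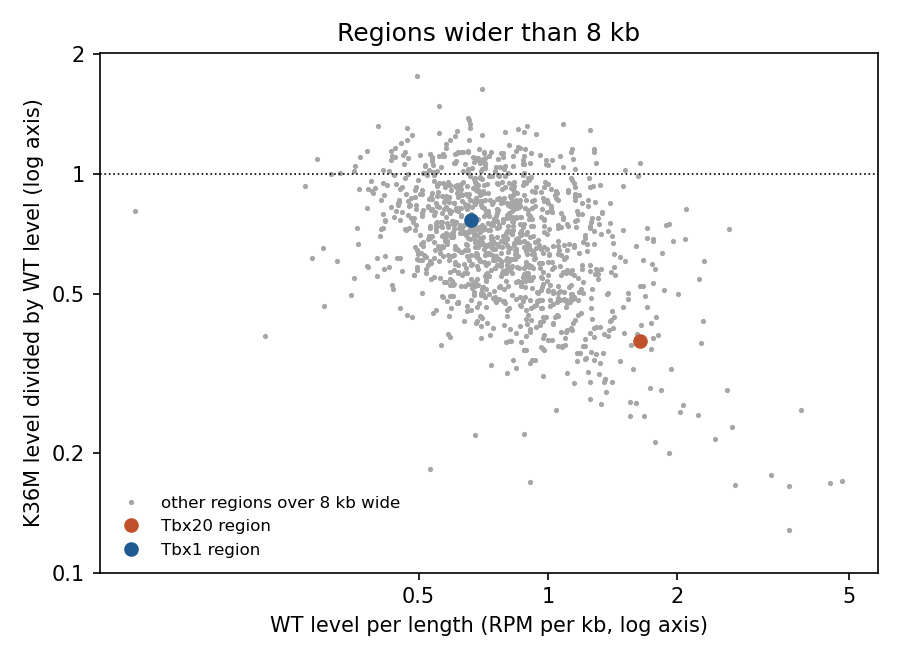
Ratio of K36M to WT level against WT level per length (RPM per kb), both on log axes, for 1214 regions wider than 8 kb, with the region spanning the start of chromosome 11 left out; each point is 1 region. Tbx20 (orange) lies among dense regions with low ratios, and Tbx1 (blue) at 0.661 RPM per kb lies in the main body of the points.

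Along chromosome 9 the Tbx20 region had no near neighbour. The nearest listed regions were 1300.4 kb below it and 6896.2 kb above it. Of the 6350 gaps, 23 were at least as long as the longer of these, the gap itself included. The nearest region below, at 23269801 to 23270200, had a WT level of 2.11 RPM and a K36M level of 2.25 RPM. Its ratio was 1.07 (counting interval 0.749 to 1.52), so no difference between the libraries was detectable there. The nearest above, at 31478801 to 31484800, held 4.42 and 2.31 RPM.

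At Tbx1, which patterns the pharyngeal apparatus and the outflow tract, the Ring1b level differed least between the libraries among the 5 regions. The region on chromosome 16, 18541401 to 18552200, stood at 7.14 RPM in WT (213 reads, interval 6.21 to 8.16) and at 5.48 in K36M (173 reads, interval 4.70 to 6.36). The counting intervals of the levels overlapped. The ratio was 0.769 (interval 0.625 to 0.944), or 1.30-fold lower in K36M (1.06-fold to 1.60-fold). Its log2 ratio of -0.37 lay 0.28 above the median of all regions and 0.15 above that of regions wider than 8000 bp. With either scaling that removes the difference shared by the table, the log2 ratio of the Tbx1 region was above 0 (0.28 and 0.27). No counting interval was computed on those scales, so a higher level in K36M beyond counting error was not shown. Per length, WT stood at 0.661 RPM per kb and K36M at 0.508, below the class medians of 0.775 and 0.519.

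The Tbx1 region belongs to its window by a narrow overlap. Of its 10.8 kb, 2.2 kb lay inside the window and 8.6 kb before it, on the side where Gnb1l is the next coding gene in the RefSeq order. Which of the 2 genes it overlaps was not tested. Widening the window by 20 kb added 3 touching regions of 200 bp at 18533001 to 18533600. These had WT levels of 0, 8.34 and 2.18 RPM and K36M levels of 0, 7.10 and 1.97 RPM. The log2 ratio of the widened window was -0.28. In that sum the 200-bp region of 8.34 RPM in WT outweighs the Tbx1 region itself (7.14 RPM in WT).

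Tbx15, which acts in skeletal and dermal patterning and belongs to the Tbx1 subfamily, had a narrow region of low level. The 800-bp region on chromosome 3, 99115801 to 99116600, stood at 1.51 RPM in WT (45 reads, interval 1.10 to 2.02) and at 0.697 in K36M (22 reads, interval 0.437 to 1.06). WT was the higher value, and the counting intervals of the levels did not overlap. The ratio was 0.463 (interval 0.265 to 0.787), or 2.16-fold lower (1.27-fold to 3.78-fold). At this depth the reduction could be slight or larger than at Tbx20. The log2 ratio of -1.01 was -0.10 relative to the median of the 890 regions over 400 and up to 2000 bp wide, so the region was ordinary for its width. Its level per length, 1.88 RPM per kb for WT and 0.872 for K36M, was below the class medians of 2.84 and 1.29. No other listed region lay within 900.2 kb on the lower side or 1075.2 kb on the higher side.

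Eomes, a gene of the Tbr1 subfamily needed in trophoblast and for mesoderm and endoderm formation, had 2 touching regions that together spanned 4 kb near the middle of its window. The first, 400 bp on chromosome 9 at 118386001 to 118386400, stood at 1.37 RPM in WT (41 reads) and at 0.380 in K36M (12 reads). The second, 3600 bp at 118386401 to 118390000, stood at 2.91 RPM in WT (87 reads) and at 1.68 in K36M (53 reads). In both, WT lay above K36M and the counting intervals of the levels did not overlap.

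The narrow Eomes region had the lowest ratio of the 5, 0.277 (interval 0.133 to 0.537), or 3.61-fold lower. That interval includes the Tbx20 ratio of 0.382. With 1 RPM added the narrow region's log2 ratio was -0.78 against -1.28 at Tbx20, so the order of these regions was not settled. Of the 1906 regions of 400 bp or less, 439 had a lower log2 ratio than the narrow Eomes region. In that class, 39.2% of regions were at least 2-fold lower. The wider Eomes region had a ratio of 0.576 (interval 0.402 to 0.820), or 1.73-fold lower. Its log2 ratio of -0.76 was -0.02 relative to the median of its width class and -0.11 relative to all regions, so it was ordinary for its width. The ratio of these 2 ratios was 0.482 with an interval of 0.211 to 1.04, so that a difference between the touching regions was not detectable at this depth. Summed, the Eomes regions came to 4.29 RPM in WT against 2.06 in K36M, 2.08-fold lower (1.53-fold to 2.85-fold). The narrow region held 3.43 RPM per kb in WT, below the median of 6.62 of regions of 400 bp or less, and the wider one held 0.810, below the median of 1.51 of regions over 2000 and up to 4000 bp. In K36M they held 0.951 and 0.467 RPM per kb, against class medians of 3.49 and 0.860. Both Eomes regions were thus sparse for their width in either library.

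**Figure D4:**
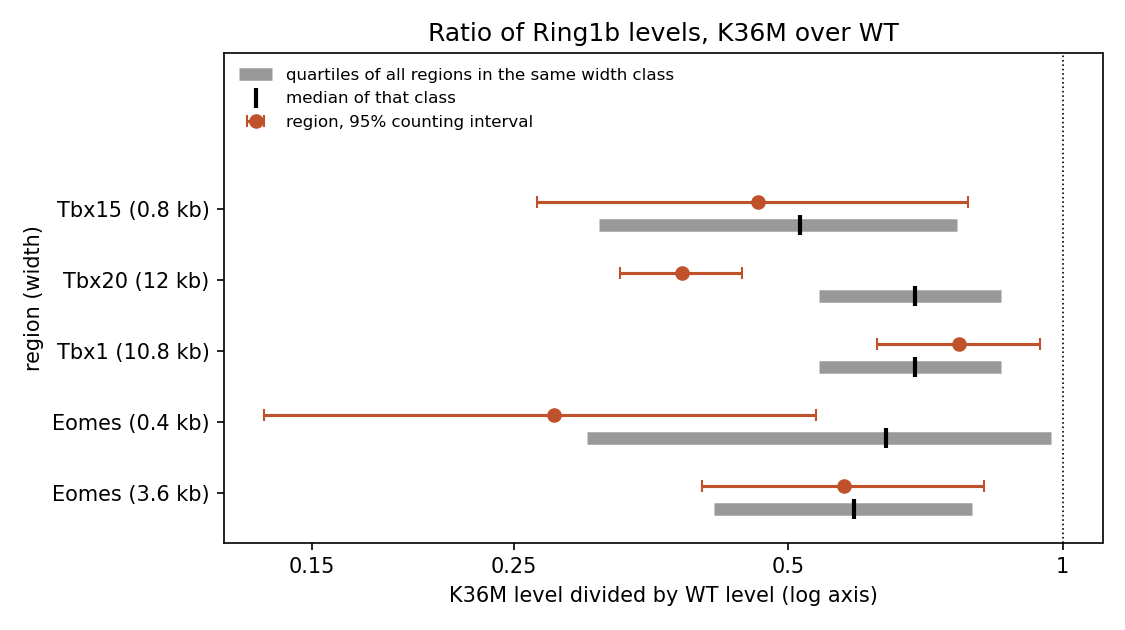
K36M level divided by WT level (log axis) at the 5 T-box regions, with 95% counting intervals (orange), above the quartiles (grey bar) and median (black tick) of all regions in the same width class. The Tbx20 interval of 0.327 to 0.445 lies below the lower quartile of its class, 0.540, and the other 4 intervals overlap the quartile range of theirs.

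In order of their ratio the windows were Tbx20 (0.382), Tbx15 (0.463), Eomes (0.481) and Tbx1 (0.769). The first 3 could not be separated: the ratio of ratios was 1.21 for Tbx15 over Tbx20 (interval 0.677 to 2.11) and 0.963 for Tbx15 over Eomes (0.505 to 1.80), and that of Tbx20 over Eomes was 0.795 (0.562 to 1.13). Tbx1 differed beyond counting error from Tbx20, whose ratio was 0.497 times that of Tbx1 (interval 0.383 to 0.644). It also differed from Eomes, with a ratio 1.60 times as high (interval 1.10 to 2.33). From Tbx15, the window with the fewest reads, it did not (Tbx15 over Tbx1 0.603, interval 0.331 to 1.07). Of the 6 pairs, 2 had intervals that exclude 1, and the intervals were not adjusted for the number of pairs. Both of these pairs rest on the Tbx1 region, of which 8.6 of 10.8 kb lay outside its window.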

How the data were processed

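The authors deposited 1 table of regions on mouse build mm9 with a value for each Ring1b library. How peaks were called, duplicates handled and reads counted is not given in the sources used here, beyond Bowtie 1.0.0 in the submitters' processing notes. The deposited columns are headed RPKM, but every value is a whole multiple of 1 step per library, within 0.01 reads, whatever the region width. The deposited values are therefore treated as RPM, and values divided by the step as reads. Starts are printed counted from 1.

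The members, windows and comparisons were chosen with earlier results of these data known. Regions overlapping a window were taken whole. All regions of a window were described, since none held more than 6. Ratios carry Clopper-Pearson intervals conditional on total reads, levels exact Poisson intervals, and ratios of ratios exact conditional intervals (SciPy 1.17.1). Width classes were 400 bp or less, up to 2000, 4000 and 8000 bp, and wider. The planned comparison of Tbx3 with Tbx5 had no region to use. Gene neighbours came from RefSeq on GRCm38.p6 by name, and no coordinates were converted. Alternatives were pseudocounts of 1 and 0.01 RPM, 2 scalings between libraries, other window edges, filters on reads (20) and width (400 bp), a 99% interval and a binomial test.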

Additional observations from a re-analysis of the deposited data

How the results depend on the processing

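The choice between the authors' scale and removing the difference shared by the table changed the sign of the Tbx1 log2 ratio. Centred on the median of all regions, the log2 ratio of the Tbx1 region and window was 0.28, and with each library divided by its sum over all regions it was 0.27. Centred on its width class, an alternative chosen after seeing the data, the region stood at 0.15. The wider Eomes region moved from -0.76 to -0.11 and -0.13 under the first 2 scalings and to -0.02 under the last, and the narrow one from -1.62 to -0.78 with a pseudocount of 1 RPM. Centring and division by the sum gave -0.72 and -0.73 for the Tbx20 window, -0.37 and -0.39 for the Eomes window and -0.36 and -0.42 for the Tbx15 window. No counting interval was computed on these scales. The median ratio of all regions with WT reads, without a pseudocount, was 0.626. The counting interval of the Tbx20 window on the authors' scale (0.327 to 0.445) lay wholly below that median. Those of Tbx15 (0.265 to 0.787), Eomes (0.351 to 0.653) and Tbx1 (0.625 to 0.944) included it. Only Tbx20 thus lay below that median beyond counting error. Division by the sum was not checked in this way. The count of regions at least 1.5-fold lower was 2 of 5 with a pseudocount of 1 RPM and under either scaling. The count at least 2-fold lower was 1 with that pseudocount, 0 after centring and 1 with each library divided by its sum. Counting only regions wholly inside a window left Tbx1 without a value and gave a median of -1.19. Leaving out each window in turn gave -1.19 to -0.89. Widening the windows by 20 kb gave -0.57. The 3 regions added by widening all lay at Tbx1, and 1 of them, with 0 reads in both libraries, entered with a log2 ratio of 0. With a 99% interval 4 of the 5 regions lay below 1, Tbx1 being the exception. The binomial test on reads called all 5 lower. No paired analysis was possible because each form of H3.3 had 1 library. Depth limits the narrow regions most: the Eomes and Tbx15 regions under 1 kb rest on 12 and 22 K36M reads.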

Other observations

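The nearest listed regions around T-box windows that held none were not assigned to those genes, and their values are given as measured. Below the Tbx2 and Tbx4 window, a region on chromosome 11 (85498001 to 85500800) had a WT level of 4.19 RPM and a K36M level of 1.81 RPM, 2.32-fold lower (counting interval 1.68 to 3.23). Above that window, 612 kb away, a region at 86382001 to 86385000 had a WT level of 4.96 RPM and a higher K36M level of 7.61 RPM, a ratio of 1.53 (interval 1.25 to 1.90). Below the Tbx18 window, a region on chromosome 9 (87358601 to 87360400) stood at 6.43 RPM in WT against 2.35 in K36M, 2.74-fold lower (interval 2.09 to 3.64). Above that window, a region at 87973201 to 87978400 stood at 4.99 against 3.61 RPM, 1.38-fold lower (interval 1.08 to 1.78). Around T, the nearest regions were 730.8 kb below and 1339.6 kb above its window and were 2.76-fold and 2.38-fold lower. Around the stretch that holds Tbx3 and Tbx5, they were 1.42-fold and 1.62-fold lower.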
